A study of Caenorhabditis elegans with 28 samples.

Results

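Immunoprecipitations from worms that carry only a tagged green fluorescent protein (GFP) show which stretches of the genome are recovered without a Notch pathway protein. The regions described here are those with called peaks in at least 2 such control libraries and no overlapping called peak of LAG-1. They were chosen by merging the peaks of 14 immunoprecipitates wherever peaks overlapped by at least 1 bp, and by keeping those that 2 or more of 6 control libraries marked and 0 of 4 LAG-1 libraries did. Of 24961 merged regions, 219 met this rule, which is 0.877% of all regions. Because the control and LAG-1 peaks chose the regions, the values of those libraries, the division between Flag and Myc controls included, are given as a description. Notch peaks did not enter the count of libraries but took part in the merging, so Notch values are also given with regions merged over the control and LAG-1 lists alone.

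Chromatin was taken from whole Caenorhabditis elegans L4 larvae grown at 20 °C, and the authors called peaks for every library separately, with the matching input as reference. Each sample pooled many worms. The controls, of the labelled strain pJK1728, carried Flag- and Myc-tagged GFP. Their titles divide them into Flag controls, lettered a to c, and Myc controls, lettered a, c and d, with 3 libraries each. LAG-1 with an N-terminal tag (strain pJK1689, libraries a, b, c and e) and the Notch receptor GLP-1 with a C-terminal tag (strain pJK1662, libraries a, b, c and d) were precipitated from 4 samples each. All 6 controls are labelled with a Flag antibody, those titled Myc included, while LAG-1 and Notch are labelled with a Myc antibody, so no control library is labelled with the antibody used for the targets. The promoter that drives the tagged GFP is not given in the sources used here, and the labelled stage and tissue could not be checked, since peak lists hold no expression values. The design text calls the control and Notch replicates biological and does not say so for LAG-1.

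LAG-1 is the worm's CSL protein and binds DNA directly, and the intracellular domain of GLP-1 joins it on DNA to switch on target genes in germline stem cells. Peaks in control precipitations are a familiar feature of this assay. They are known from open or strongly transcribed chromatin and from sequences present in many copies, and control libraries are used to set such places aside. No genome or annotation of the build of these lists (ce10) was used here, so the regions are named by position alone and no sequence is shown.

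The control lists differed greatly in length. Among Flag controls the list of a had 127 peaks (16.8 M tags), that of b 45 (12.8 M) and that of c 83 (11.5 M). Among Myc controls the list of a had 8078 peaks (11.02 M tags), that of c 5824 (3.13 M) and that of d 127 (8.98 M). Controls were called at a false discovery rate of 0.001 and the targets at 0.01. By that setting alone, the LAG-1 lists that exclude a region were called less strictly than the control lists that admit it. The caller's effective Poisson thresholds went the same way, at 0.000277 to 0.000717 for LAG-1 and 1.4e-05 to 6.44e-05 for the controls. Raw tag thresholds were 47 to 91 tags for LAG-1, in libraries of 9.37 to 19.8 M tags. They were 30 for Myc control a, 15 for Myc control c and 41 to 69 for the other controls. These counts are not scaled to depth and do not rank the lists by strictness.

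The recurrent control regions were above all regions shared by the longest pair of control lists. Myc controls a and c alone accounted for 189 of the 219 regions (86.3%), and 217 had a peak in at least 1 of these lists. Only Myc controls carried a peak at 194 regions. Flag and Myc controls together did so at 23, and only Flag controls at 2. A Flag control peak was thus present at 25 regions, and the same held for 1.4% of the 13262 regions with a peak in exactly 1 control library and no LAG-1 peak. The rule itself sets these shares apart, since it asks for at least 2 control libraries in place of 1. Of the 1-control regions, 97.8% came from Myc control a or c. Recurrence beyond a pair of libraries was nearly missing among them, with 218 regions in exactly 2 control libraries and 1 region in 3. The LAG-1 part of the rule shaped this, since it removed 10 of the 11 regions with at least 3 control libraries.

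**Figure D1:**
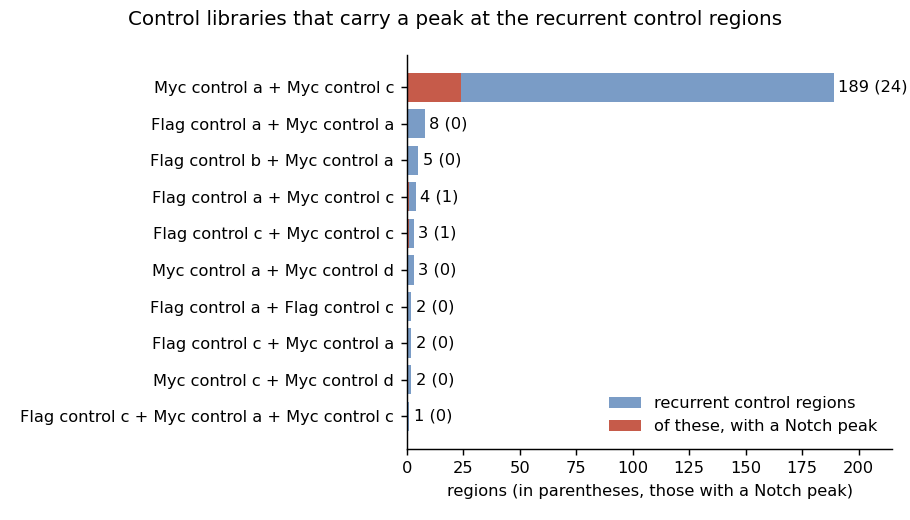
Number of recurrent control regions (x axis) for each set of control libraries that carry a peak there (y axis), with the part that also holds a Notch peak in red and its number in parentheses. Myc controls a and c account for 189 of the 219 regions, and the other sets hold 1 to 8 regions each.

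Counted from the lists, 14, 5 and 8 peaks of Flag controls a, b and c and 208, 199 and 5 peaks of Myc controls a, c and d lay in these regions. As a share of each list this was 11.02%, 11.1% and 9.64% for Flag and 2.57%, 3.42% and 3.94% for Myc, and the groups did not overlap. The means were 10.6% ± 0.826 (SD, n = 3) and 3.31% ± 0.687 (SD, n = 3). The difference of 7.28 percentage points has no test, since the same peaks chose the regions and the shares are divided by lists of very different length. With the same 44 top peaks taken from every list the difference turned to -1.52 points, but only 3 recurrent regions then remained. The Flag lists hold 45 to 127 peaks, and Myc control d, with 127 peaks, had a share of 3.94%. The part of list length in the difference was not tested further.

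The region with a peak in 3 control libraries was II:9014459-9014828. Its peaks had a fold over input of 4.72 in Flag control c, 5.43 in Myc control a and 4.97 in Myc control c, from 126, 82 and 32 tags. The median folds of the other peaks of these lists were 4.39, 4.94 and 5.18. Only Flag controls marked I:7400665-7401130, with folds of 4.54 in Flag control a and 4.11 in Flag control c. The other such region was III:11729875-11730310, with folds of 5.48 in Flag control a and 4.78 in Flag control c. Neither had a Notch peak. Folds are the authors' values for each peak and serve to rank peaks within a list.

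Most of these peaks were weak, close to the 4-fold excess over input that the caller required. The weaker of a region's control peaks had a fold of 4.01 at the lowest, 4.63 at the median and 19.47 at the highest. It reached 6 at 15 regions, 8 at 3 regions and 13 at 2 regions. The stronger control peak had a median fold of 5.65 and reached 10 at 7 regions. At the 67 regions with peaks in at least 2 control libraries that the rule left out for a LAG-1 peak, the weaker control peak had a median fold of 4.67 and the stronger 5.68.

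Within each list these peaks resembled the remaining peaks. The median fold in Myc control a was 5.12 for the 208 peaks in recurrent regions and 4.94 for the other 7870, and in Myc control c it was 5.04 for 199 and 5.18 for the other 5625. The median in Flag control a was 4.765 against 4.63, in Flag control b 4.91 against 4.705, in Flag control c 4.265 against 4.39 and in Myc control d 4.27 against 4.44. Peaks in recurrent regions thus lay above the remaining peaks of the list in 3 control libraries and below them in 3, by small amounts. The focus ratio, the caller's fraction of tags placed on the side of the centre that their strand calls for, had medians of 0.833 against 0.837 in Myc control a and 0.842 against 0.829 in Myc control c. Input tags under the peaks, scaled by the authors, had the same medians for both kinds of peak, at 16.3 in Myc control a and 6.3 in Myc control c. In Flag control b, with 5 such peaks, the median focus ratio was 0.898 against 0.762 and the clonal fold 1.69 against 1.03.

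**Figure D2:**
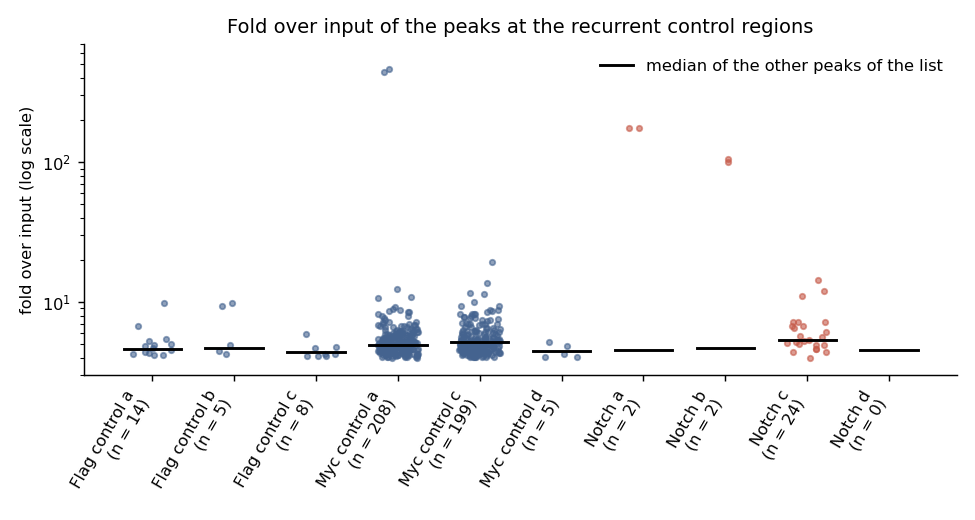
Fold over input on a log axis for each peak that lies in a recurrent control region (points), by library, with the median of the other peaks of the same list as a black bar. Points crowd near the 4-fold limit in all control libraries, apart from the peaks of 440 and 463 in Myc control a and the Notch a and Notch b peaks of 101 to 177.

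The depth behind the peaks was modest. In Myc control c, the shallowest library, a peak in a recurrent region held 21 to 214 tags with a median of 33, and in Myc control a 47 to 9391 with a median of 84.5. Flag control peaks in these regions held 86 to 396 tags. Over the 190 regions with a peak in both Myc controls a and c, the folds of these libraries had a Spearman rho of 0.120 across regions, and 0.0913 without the strongest pair of regions. Regions of a genome are not independent replicates, and both lists start at a fold of 4.

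Peak centres of Myc controls a and c were spread over nearly the full distance at which their peaks could still touch. At 190 regions the centres lay a median of 86 bp apart, where overlap ends at 179 bp. Expressed as a share of that largest distance, the median was 0.480, with quartiles of 0.207 and 0.747. Each of 10 equal bins of the range held between 12 and 25 of the 187 regions where these peaks overlapped directly. For comparison, the 935 regions that carried a peak in 2 or more LAG-1 libraries and none in a control had median shares of 0.0717 to 0.187 over the 6 pairs of LAG-1 libraries. Centres fell within the closest 0.1 of the range at 13.2% of the Myc control regions and at 29.7% to 62.1% of the LAG-1 regions, depending on the pair. They fell within the nearer part of the range, up to a share of 0.5, at 51.6% and at 88.1% to 98.4%. The library pairs share libraries, so the difference has no test. Spread centres were not limited to the recurrent regions: at the 47 regions with peaks of Myc controls a and c that the rule left out for a LAG-1 peak, the median share was 0.559 and 2.13% lay within 0.1. At only 35 of these 47 did the 2 Myc control peaks overlap directly, against 187 of 190 recurrent regions. The others were joined through peaks of further lists, which raises the median share. Of the 35, 2.86% lay within 0.1.

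**Figure D3:**
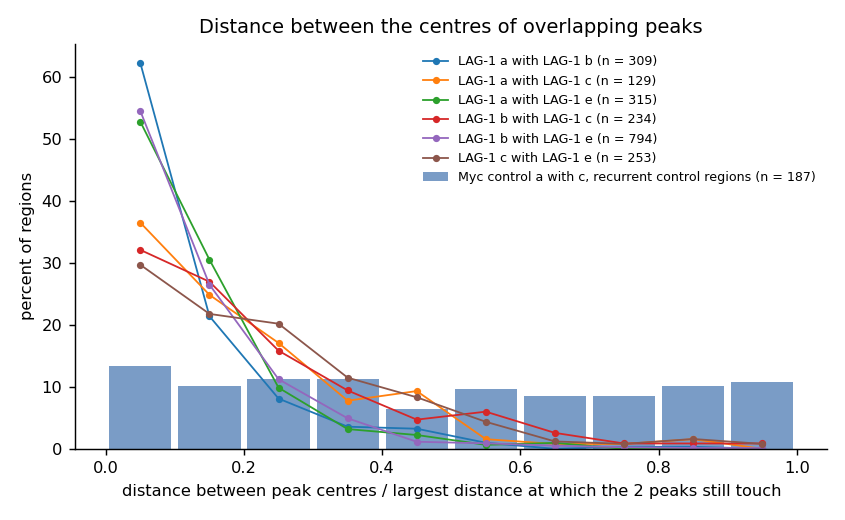
Percent of regions (y axis) by the distance between the peak centres of 2 libraries, as a share of the largest distance at which their peaks still touch (x axis), for Myc controls a and c at recurrent control regions (bars) and for 6 pairs of LAG-1 libraries at regions without a control peak (lines). LAG-1 centres gather near 0, and the bars run nearly level across the range.

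At 3 regions the control peaks did not touch each other and were joined only by a Notch peak between them, namely I:132085-132567, II:2725005-2725407 and V:18272039-18272522. At the 25 regions with a Flag control peak the closest control centres had a median share of 0.5, and 7 of them had a share of at most 0.1. All 5 regions of Flag control b with Myc control a were among these 7. They were 163 to 170 bp long, where a Flag control b peak alone spans 163 bp. At 2 regions the centres of the control peaks coincided, both times between Flag control b and Myc control a. At V:17311084-17311246 the Flag control b peak spans 17311084 to 17311246 and the Myc control a peak 17311087 to 17311243, with folds of 9.41 and 8.18 from 106 and 117 tags. At IV:3207962-3208124, named after its values were seen, the peaks span 3207962 to 3208124 and 3207965 to 3208121, with folds of 9.88 and 5.81 from 86 and 67 tags. In Myc controls a and c the peaks at I:12743051-12743253 were nested, with folds of 10.81 and 7.69.

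Each control library was also left out of the choice in turn, and its peaks were then counted at the regions that the others chose. Among regions with peaks in at least 2 of the remaining controls and in no LAG-1 library, the library left out had a peak at 0 of 205 for Flag control a, 0 of 214 for Flag control b, 1 of 212 for Flag control c and 0 of 214 for Myc control d. For Myc control a it was 1 of 12 and for Myc control c 1 of 21. Wherever there was such a peak, the region was II:9014459-9014828, the 1 recurrent region in 3 control libraries. The counts thus restate that 1 region and are not separate findings. Among regions with a peak in exactly 1 remaining control, the same libraries had a peak at 0.121%, 0.0377%, 0.0530% and 0.0380% for Flag controls a, b and c and Myc control d and at 3.52% and 2.48% for Myc controls a and c. Exact 95% binomial intervals ended at 1.78% for Flag control a and at 1.71% for Flag control b and Myc control d, and they were 0.0119% to 2.60% for Flag control c, 0.211% to 38.5% for Myc control a and 0.120% to 23.8% for Myc control c. A region with 1 remaining control and a peak in the library left out has 2 controls, so the latter shares largely restate the recurrent regions. The rule thus shapes both sets, and their comparison does not measure recurrence. With 0 or 1 region behind each value, the former shares also cannot be told apart from those at regions with 1 control or from much larger ones. The 6 values share libraries and were not tested together.

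Notch libraries gave a peak at 26 of the 219 regions, against 4.28% of the regions with 1 control peak and no LAG-1 peak. The share was 11.9% (exact 95% binomial interval 7.90% to 16.9%, counting error only). At 3 of the 26, those joined only by a Notch peak, that peak was present by construction. By library, 2 regions had a peak in Notch a, 2 in Notch b, 24 in Notch c and 0 in Notch d. Against this, the 1-control regions had a peak in 0.317%, 0.0302%, 3.83% and 0.151%. Nearly all of the overlap thus came from Notch c, whose list holds 8261 peaks at 4.58 M tags, against 826, 44 and 302 peaks in Notch a, b and d.

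The difference between recurrent and 1-control regions was 0.597, 0.883, 7.13 and -0.151 percentage points in Notch a, b, c and d. Its mean was 2.11 ± 3.37 (SD, n = 4), positive in 3 of 4 libraries, and did not pass an exact two-sided sign-flip permutation test (p = 0.25, adjusted p = 0.25). The values of Notch a and b rest on the same 2 regions, I:132085-132567 and I:133252-133685, which lie 685 bp apart. The control peaks of the former were joined only by a Notch peak. A test over 4 libraries cannot give a p below 0.125. With regions merged over the control and LAG-1 lists alone, 25 of 218 regions had a Notch peak, in 1, 2, 23 and 1 cases in Notch a, b, c and d. The difference was then 0.127, 0.880, 6.66 and 0.308 points, with a mean of 1.99 ± 3.13 (SD, n = 4), positive in 4 of 4 libraries, at an exact permutation p of 0.125. Recurrent regions were also longer, with a median of 282 bp against 157 bp, since they join several peaks. With the Notch centre required within 100 bp of the region's midpoint, the mean difference was 1.32 points (exact permutation p = 0.375) and the shares in Notch c were 8.68% and 3.81%. Without Notch c the mean difference was 0.451 points, and without Myc control c it turned to -1.20.

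**Figure D4:**
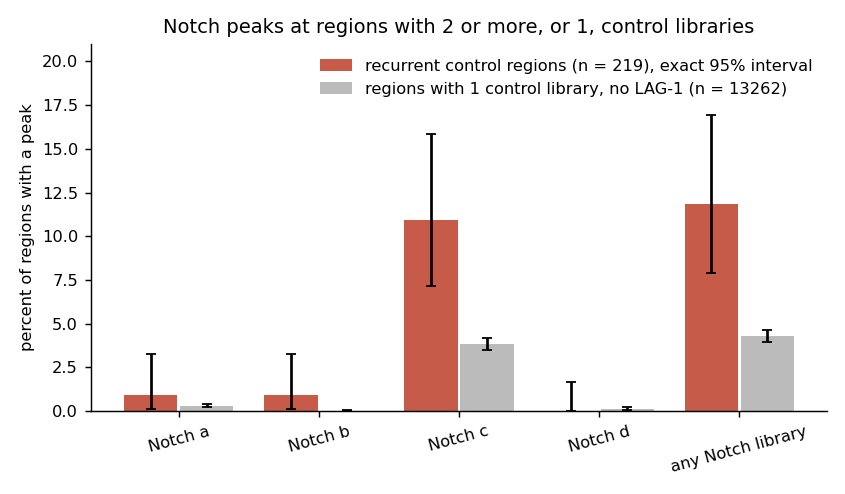
Percent of regions with a peak in each Notch library and in any of them, for the 219 recurrent control regions (red) and the 13262 regions with 1 control library and no LAG-1 peak (grey), with exact 95% binomial intervals that cover counting error only. The bars stand apart most in Notch c, at 10.96% and 3.83%.

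The 2 strongest recurrent regions were I:132085-132567 and I:133252-133685, which lie 685 bp apart. At the former, the Myc control a peak had a fold of 463 from 9391 tags against 20.3 scaled input tags, and the Myc control c peak a fold of 19.5 from 214 tags. The fold there was 177 in Notch a and 101 in Notch b. At the latter, the folds were 440 in Myc control a, 13.6 in Myc control c, 177 in Notch a and 106 in Notch b. No other list had a peak at either region, and among the Myc control a peaks in recurrent regions without this pair the highest fold was 12.31. No other recurrent region had peaks in 2 Notch libraries, and of 1-control regions 0.0452% did.

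Measured against the surrounding 10 kb in place of input, the 8 peaks of this pair had folds of 4.93 to 10.70, and their focus ratios lay between 0.528 and 0.641, below the list medians of 0.777 to 0.837. The clonal fold, the caller's measure of repeated tag positions, was 0.5 to 0.68, against medians of 1.105 to 1.43 for the other peaks of these lists. A further peak of Myc control a, from 131595 to 131751, had a fold of 500 and no partner in another list. Notch a had an additional peak from 132784 to 132978 with a fold of 204. The Myc control a and c peaks of I:132085-132567 touch the Notch peaks but not each other.

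**Figure D5:**
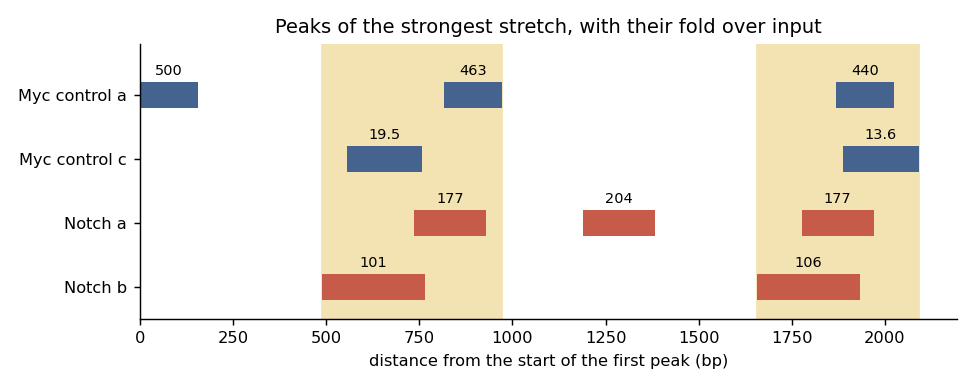
Peaks of Myc controls a and c (blue) and of Notch a and b (red) along the strongest stretch, by distance in bp from the start of its first peak, with the fold over input above each peak and the 2 recurrent regions shaded. Folds were 440 to 500 in Myc control a, 13.6 and 19.5 in Myc control c and 101 to 204 in the Notch lists.

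Apart from this pair, the Notch peaks at recurrent regions were ordinary for their list. The 24 peaks of Notch c had a median fold of 5.52 against 5.37 for the other 8237 and a median focus ratio of 0.846 against 0.847. Over the 3 Notch libraries with such peaks the median fold differed by 90.4 ± 86.4 (SD, n = 3) and the focus ratio by -0.149 ± 0.129 (SD, n = 3), each at an exact sign-flip permutation p of 0.25 (adjusted p = 0.25), the smallest that 3 libraries allow. With regions merged without the Notch lists, 4 libraries had such peaks, and the differences were 62.7 ± 81.7 and -0.137 ± 0.0833 (SD, n = 4), each at an exact permutation p of 0.125, the smallest for 4 libraries. Without the pair on chromosome I, under the merging of all lists, only Notch c remained, with differences of 0.15 and -0.001 and no test.

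The strongest of the Notch c peaks lay at III:11640220-11640724, with a fold of 14.3 from 72 tags, next to folds of 4.29 in Flag control a and 4.42 in Myc control c. At II:2725005-2725407 the Notch c fold was 11.99 and at IV:2200068-2200459 it was 11.06, with Myc control folds of 4.5 to 6.71 at both. Of 5 further regions from the ranking by Notch peaks, III:3118547-3118999, IV:9733859-9734232, V:19176402-19176710, V:7972958-7973308 and I:179929-180312, each had a single Notch peak, in Notch c, with folds of 6.73 to 7.26. Their Myc control folds lay between 4.17 and 6.95.

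Beyond the leading pair, the ranking by fold within the control lists named 8 regions, none with a Notch peak. II:8419551-8419836 had folds of 12.31 and 7.81 in Myc controls a and c. IV:4409413-4409696 had folds of 7.16 and 8.63, III:667923-668262 folds of 7.44 and 7.49, and V:20859958-20860303 folds of 6.44 and 7.91 in the same libraries. At I:11961385-11961764 the fold was 6.72 in Flag control a and 6.97 in Myc control a, and at I:3846783-3847155 it was 5.92 in Flag control c and 6.92 in Myc control a. The list is completed by V:17311084-17311246 and I:12743051-12743253, described above. Of these 8 regions, 3 thus had a Flag control peak, and the leading pair of the same ranking had none. Of all 219, 25 did. The same control peaks chose and ranked the regions, in lists of very different length, so these shares are a description only.

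The regions just outside the rule included the highest control folds of the lists. Among regions with 1 control library and no LAG-1 peak, Myc control a had a fold of 755 at X:5910531-5910833 and Flag control c a fold of 423 at X:5910203-5910497, each over a scaled input of 0.2 tags, and Myc control c had a fold of 26 at V:845582-845784 and 21.8 at IV:13336108-13336310. The median fold over the 13262 regions was 5.03. On the other side, 11 regions had peaks in at least 3 controls, and 10 of these fell out through a LAG-1 peak. At I:10589145-10589928 the folds were 274 and 201 in Myc control a, 16.4 in Myc control c, 72.1 in Flag control b and 13.4 in Flag control c, with a LAG-1 peak in library b alone, at 25.8. At III:9096248-9096860 the LAG-1 peak was in library a alone, with a fold of 127, against 37.2, 11.98 and 8.81 in Myc controls d and c and Flag control b. II:14366066-14366671 had peaks in all 3 Flag controls, at 9.26, 4.57 and 7.83, and in LAG-1 c, at 9.32. X:16930660-16931884 and I:12483530-12483989 had peaks in 2 and 4 LAG-1 libraries. Of the 67 regions left out for LAG-1, 17 had a peak in only 1 LAG-1 library and 27 in all 4.

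By chromosome, 31 regions lay on I, 36 on II, 26 on III, 39 on IV, 56 on V and 31 on X. Chromosome V held 25.6% (exact 95% interval 19.9% to 31.9%) against 20.6% of the 1-control regions and 20.3% of all regions, and X held 14.2% (9.82% to 19.5%) against 16.8% and 16.5%, so each interval contains both comparison shares. With each chromosome divided into 3 equal parts, the outer parts held 151 regions (68.9%), against 69.5% of the 1-control regions and 63.9% of the 935 LAG-1 regions. The nearest LAG-1 peak was a median of 11558 bp away, against 11450 bp for 1-control regions. Within 1000 bp of a LAG-1 peak lay 16 regions (7.31%), against 6.3% of 1-control regions, and none of the 16 had a Notch peak. The closest were X:14287686-14287888, 3 bp from a LAG-1 peak, and IV:4307027-4307242, 20 bp from one. Neighbouring regions lay within 10 kb of each other in 3 cases, the pair on chromosome I, a pair on III 8858 bp apart and a pair on IV from 16098184 and from 16098840, 282 bp apart.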

How the data were processed

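The submitters' processing notes name CASAVA 1.8, Bowtie, HOMER and build ce10. Per the file headers, HOMER called each library against its input, required a 4-fold excess over both the input and the local 10 kb, and removed peaks past a clonal limit. The deposited total tags are counts and the input tags a scaled signal, except in LAG-1 a and b. In these lists the total tags are the scaled signal, and the input tags at the regions named here are whole numbers. Fold over input, local fold and clonal fold are ratios in the deposited lists, the focus ratio is a fraction given by the authors' caller, and the deposited peak score and p-values were not used.

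Peaks of 14 immunoprecipitates, 3.13 to 19.8 M tags each, were merged with Python 3.11.15 and pandas 2.3.3, checked on simulated lists. The regions and lists were chosen with earlier results of these data known. Libraries were compared by exact two-sided permutation, adjusted over 4 tests by the Benjamini-Hochberg method. The p of the Flag against Myc shares, among the 4, is not given, because the rule used those peaks. Binomial intervals are exact and cover counting error only. Named were regions in at least 3 controls or 2 Flag controls, the first 10 by Notch peaks, the first 10 in exactly 2 controls by percentile of fold within each list, and 5 from each side just outside the rule. Alternatives were a fold of at least 6, equal list lengths, other overlap rules, merging without Notch, 3 controls, a distance from LAG-1, single control groups and leaving out libraries. Added after seeing the data were a fixed window for Notch peaks and leaving out the leading pair of regions. Sequence and gene features were planned and not run, because the gene table at hand (WBcel235) is of another assembly.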

Additional observations from a re-analysis of the deposited data

Results flagged for a closer look

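A single library stood far above the others of its group in 3 Notch values, all in Notch c, which has the longest Notch list. A Notch c peak was present at 10.96% of the recurrent control regions, against at most 0.913% in the other Notch libraries, and at 3.83% of the regions with 1 control and no LAG-1 peak. The difference between these shares was 7.13 percentage points in Notch c. Of 3 such groups of 4 libraries looked at, all 3 were marked, where chance marks about 1 in 20. The 3 values rest on the same lists and the last is the difference of the others. They are therefore not separate marks, and that rate cannot be applied to them together.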

How the results depend on the processing

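The number of recurrent regions rests on Myc controls a and c: it was 2 without both, 2 from the Flag controls alone, 16 at a fold of at least 6, 3 with equal list lengths, 1 with 3 controls required, 133 with centres within 100 bp, 116 with an overlap of 100 bp, and 12 to 226 on leaving out 1 library, with 12 for Myc control a and 21 for Myc control c. Regions with a Notch peak numbered 2, 2, 0, 11 and 12 at the higher fold, with equal lists, 3 controls, close centres and the larger overlap, and 0 to 29 on leaving out 1 library (2 without Notch c). Regions in both control groups numbered 2, 0, 1 and 15 under the first 4 of these, and 8 to 26 on leaving out 1 library (8 for Myc control a, 11 for Flag control a). The X share was 0% at the higher fold, with equal lists and with 3 controls, and 0% to 15.1% on leaving out 1 library (0% for Myc control a, 9.52% for Myc control c). The Notch difference became -1.08 points with 3 controls and ranged from -1.20 (without Myc control c) to 3.08 on leaving out 1 library. Flag minus Myc became -1.52 points with equal lists and ranged from 3.11 (Myc control a) to 9.21 (LAG-1 c) on leaving out 1 library. The Notch fold difference ranged from 4.33 (Myc control a) to 136 (Notch c) and the focus difference from -0.224 (Notch c) to -0.105 on leaving out 1 library. The causes were not tested. With shared replicate letters (a and c) as a replicate block, Flag minus Myc was 7.34 points, given without a test. The letters are not stated to pair samples. No fold or focus value was possible with 3 controls or without Myc control c. The 3 Notch tests could not pass under any alternative. An exact sign-flip permutation over at most 4 libraries gives no p below 0.125. Their results therefore do not show that a Notch difference is absent.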
